A study of Mus musculus with 14 samples.

Results

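The Notch receptors, ligands and targets are 10 genes picked by symbol out of the 55291 genes counted in each of 14 bulk RNA-Seq samples of mouse esophagus: the receptors Notch1, Notch2, Notch3 and Notch4, the ligands Jag1, Jag2, Dll1 and Dll4, and the target genes Hes1 and Hey1. All 10 symbols were found in every sample. The samples came from 9 wild type C57BL/6 mice and were labelled as either epithelium or stroma of the esophagus. The authors' tissue methods describe pulling off the muscle layer with forceps. They call what remained a mucosal layer enriched for epithelium, so the epithelium samples need not hold keratinocytes alone. The groups were 5 aged epithelium samples (mice O1, O2, O3, OF5 and OM8), 4 young epithelium samples (Y1, Y3, YF5 and YM4), 3 aged stroma samples (O1, O2 and O3) and 2 young stroma samples (Y1 and Y3). Young mice were at most 4 months old and aged mice at least 18 months old, and no group carried a transgene, a deletion or a treatment in its labels. Sex was not given.

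Notch signaling passes between touching cells. A Jagged or Delta-like ligand on one cell binds a Notch receptor on its neighbour, the receptor is cut by ADAM proteases and by gamma-secretase, and the freed intracellular part enters the nucleus, where it joins the DNA-binding protein RBPJ and switches on genes such as those of the Hes and Hey repressors. In stratified squamous epithelia the pathway is known for its role in moving basal keratinocytes into differentiation. In blood vessels it is known for artery formation and sprouting, and in muscle for keeping satellite cells, the stem cells of the fibres, quiescent.

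Levels are given as normalized counts, which are CPM values computed on library sizes adjusted by the trimmed mean of M values (TMM), and as normalized counts per kb where genes are set against each other. Total counts per sample ran from 8217520 to 21867100. The 4 epithelium samples from mice whose codes hold a second letter (OF5, OM8, YF5 and YM4) stood apart, with 1042390 to 1433860 counts on protein-coding genes against 6665530 to 11067300 in the other 10 samples, and with 63.9% to 73.9% of their counts on CT010467.1, a ribosomal RNA feature, against 1.47% to 23.3%. A floor of 3 counts corresponded to 0.707 to 1.25 normalized counts in those 4 samples and to 0.0872 to 0.175 in the others. Epithelial and muscle markers followed the layer labels: all 5 basal and all 5 differentiated keratinocyte markers were higher in epithelium, 12 of 12 skeletal muscle fibre genes and 9 of 10 blood endothelial markers were lower, and the muscle genes summed to between 42353 and 76538 normalized counts in the stroma samples. Fibroblast markers were lower in epithelium for 3 of 6 and pericyte and smooth muscle markers for 6 of 10, and their sums overlapped between the layers, at 280 to 632 against 415 to 1031 normalized counts and at 368 to 892 against 431 to 2242. All 5 basal keratinocyte markers had counts in every stroma sample, where they summed to 13.98 to 62.1 normalized counts against 819 to 2475 in epithelium. In bulk samples, fewer cells of a type and less RNA per cell cannot be told apart.

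The first question was how the pathway is divided between the layers. Of the 10 genes, 7 were higher in epithelium than in stroma (Notch1, Notch2, Notch3, Jag1, Jag2, Dll1 and Hes1), 2 were lower (Notch4 and Hey1), and Dll4 was not called (edgeR quasi-likelihood test, Benjamini-Hochberg adjusted p under 0.05, 9 epithelium against 5 stroma samples). The layers differed widely in general: 56.2% of the 16791 genes tested passed the same threshold, 26.1% of them higher and 30.1% lower in epithelium. The median log2 fold change, epithelium minus stroma, was 1.18 over the 10 genes and -0.05 over all genes tested.

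**Figure D1:**
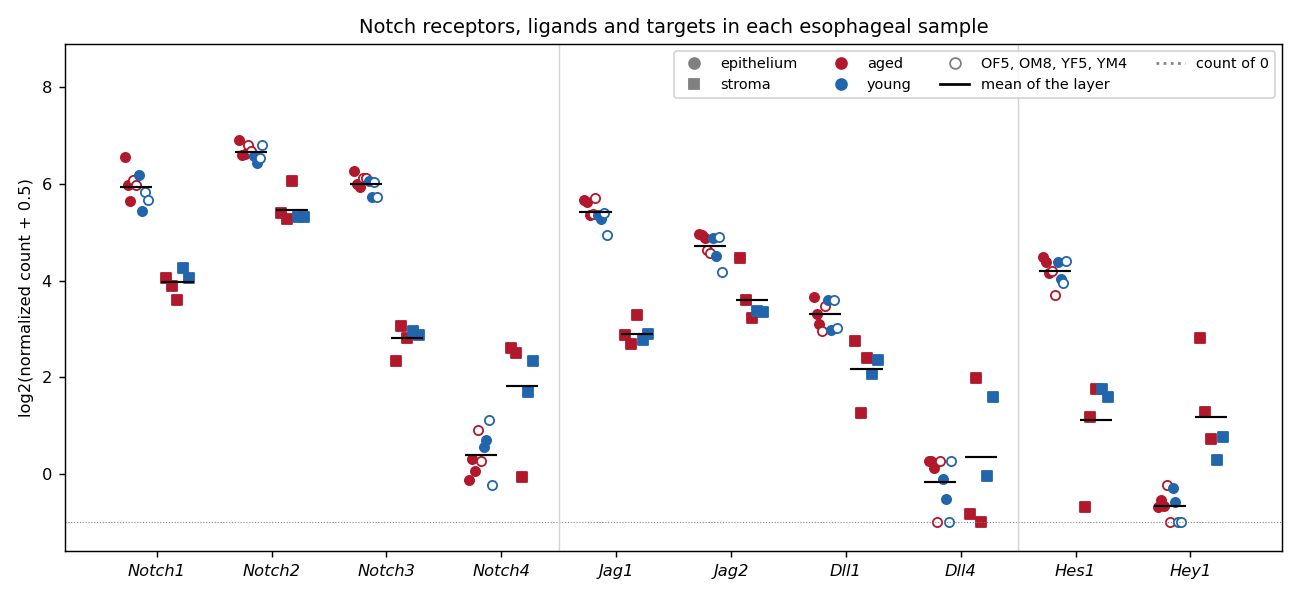
Level of each gene in each of the 14 samples, as log2(normalized count + 0.5), with circles for epithelium, squares for stroma, red for aged and blue for young. Open circles are the 4 epithelium samples of low depth, black lines are layer means, and the dotted line is a count of 0. Circles lie above all squares for Notch1, Notch2, Notch3, Jag1, Dll1 and Hes1, below all squares for Hey1, and among them for Notch4, Jag2 and Dll4.

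The 4 receptors did not move as a block. Notch3, on chromosome 17, had the largest difference of the 10 genes toward epithelium. Its 9 epithelium samples had a lowest value of 52.2, a median of 65.4 and a highest of 77.2 normalized counts. In stroma it had 4.55 in O1, 7.85 in O2, 6.50 in O3, 7.28 in Y1 and 6.78 in Y3. The groups lay far apart, and the log2 fold change was 3.28 (SE 0.18, adjusted p = 6.64e-12), a 9.71-fold difference.

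Notch1, the receptor most often linked to keratinocyte differentiation, had a lowest value of 42.9, a median of 62.2 and a highest of 93.3 normalized counts in epithelium. Stroma samples held 16.0 in O1, 14.2 in O2, 11.6 in O3, 18.6 in Y1 and 16.2 in Y3. Every epithelium sample exceeded every stroma sample, with a log2 fold change of 2.02 (SE 0.19, adjusted p = 2.45e-08). Aged O1 had the highest Notch1 of the epithelium samples, and Y3 the lowest.

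Notch2 was the receptor with the smallest difference toward epithelium. It ranged from 85.6 to 119.5 normalized counts in epithelium around a median of 98.0, and had 41.5 in O1, 38.0 in O2, 66.0 in O3, 39.2 in Y1 and 39.4 in Y3 in stroma. The O3 stroma sample stood above the other 4, yet below all epithelium samples. The log2 fold change was 1.18 (SE 0.17, adjusted p = 5.35e-06).

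Notch4, a receptor known from vascular endothelium, ran the other way. Epithelium held 0.346 to 1.67 normalized counts with a median of 0.727, which is 1 to 34 counts a sample. In stroma it had 5.54 in O1, 5.14 in O2, 2.73 in Y1 and 4.53 in Y3, but only 0.459 in O3. The O3 value, from 12 counts, fell inside the range of epithelium, so the layers overlapped in this 1 sample. Notch4 was lower in epithelium with a log2 fold change of -2.16 (SE 0.49, adjusted p = 0.00087).

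The base composition just before the transcription start differed between Notch3 and Notch4, which lie on the same chromosome and showed opposite differences between the layers. Both are shown 5′ to 3′ from RefSeq (GRCm38.p6), in lower case with CpG dinucleotides in capitals. The Notch3 stretch is chr17:32166891-32167140 on the minus strand, and the Notch4 stretch is chr17:34564045-34564267 on the plus strand, cut where the annotated exon of the gene begins.
Notch3: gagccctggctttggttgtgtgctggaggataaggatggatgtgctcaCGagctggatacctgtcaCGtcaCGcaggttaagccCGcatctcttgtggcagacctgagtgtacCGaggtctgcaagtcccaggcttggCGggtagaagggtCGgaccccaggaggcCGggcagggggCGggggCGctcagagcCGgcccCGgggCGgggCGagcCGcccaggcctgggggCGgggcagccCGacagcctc
Notch4: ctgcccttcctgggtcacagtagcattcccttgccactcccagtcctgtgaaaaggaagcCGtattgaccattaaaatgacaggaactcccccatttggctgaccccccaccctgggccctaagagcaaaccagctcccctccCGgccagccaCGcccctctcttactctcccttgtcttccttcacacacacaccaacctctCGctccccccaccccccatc
Notch3 had 17 CpG dinucleotides in the 250 bases before the start and Notch4 had 4, against a median of 6 over 32851 RefSeq promoter windows of the same length. Of these windows, 76.5% held fewer CpG than Notch3 and 37.8% fewer than Notch4. The same count was 16 for Notch1, 34 for Notch2, 20 for Jag1 and 54 for Jag2. It was 21 and 13 in the windows of Dll1, and 14 for Dll4, whose layer estimate was also negative. A relation of CpG content to the layer difference was not tested. The 250-base windows of 8 of the 10 genes were in the table, with Hes1 and Hey1 missing. No window of the 8 genes held the core RBPJ motif TGGGAA on either strand, which 21.6% of all windows held, or the ETS motif GGAAGT, which 19.7% held. The AP-1 motif TGANTCA, where N is any base, was held by 6.75% of all windows. It had 1 match, in a window of Dll1, and none in the windows of the other genes. These are matches of letters and carry no statement on binding.

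Set against each other per kb, Notch2 had the highest level of the 4 receptors in both layers. In epithelium the order was Notch2 at 9.41 ± 0.99, Notch3 at 7.93 ± 0.996, Notch1 at 4.35 ± 1.05 and Notch4 at 0.108 ± 0.056 normalized counts per kb (SD, n = 9). In stroma it was Notch2 at 4.16 ± 1.11, Notch1 at 1.08 ± 0.18, Notch3 at 0.815 ± 0.155 and Notch4 at 0.457 ± 0.260 (SD, n = 5). Notch1 and Notch3 thus traded places, as Notch3 made up 36.4% ± 2.0 of the summed receptor level in epithelium and 12.7% ± 2.9 in stroma. The share of Notch4 was 0.508% ± 0.274 in epithelium and 7.35% ± 4.27 in stroma, where it ranged from 0.730% in O3 to 11.0% in O1. Notch1 held 19.7% ± 2.4 and 16.9% ± 4.0, which overlapped between the layers.

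**Figure D2:**
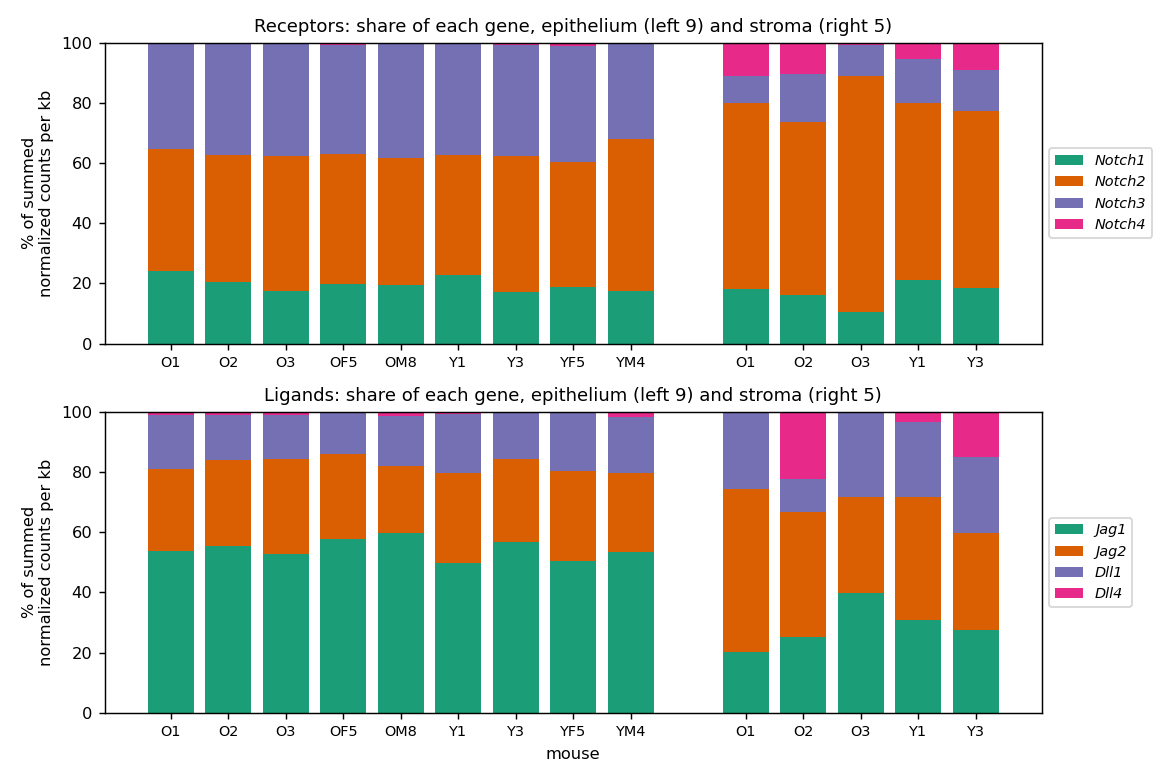
Share of each receptor (top) and each ligand (bottom) in the summed normalized counts per kb of its family, in percent, for the 9 epithelium samples on the left and the 5 stroma samples on the right. The purple Notch3 part spans 31.9% to 38.8% in epithelium and 9.03% to 15.8% in stroma, and the green Jag1 part spans 49.7% to 59.6% in epithelium and 20.3% to 39.9% in stroma.

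Among the ligands, Jag1 differed most between the layers. It had a lowest value of 30.1, a median of 41.3 and a highest of 52.1 normalized counts in epithelium. In stroma it had 6.83 in O1, 5.92 in O2, 9.26 in O3, 6.30 in Y1 and 6.93 in Y3. No stroma sample came near the epithelium samples, and the log2 fold change was 2.60 (SE 0.18, adjusted p = 1.39e-10).

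Jag2, the second Jagged ligand, ranged from 17.7 to 30.6 normalized counts in epithelium with a median of 28.9. Its stroma values were 21.6 in O1, 11.5 in O2, 8.80 in O3, 9.91 in Y1 and 9.65 in Y3. O1 stroma overlapped the epithelium, since it exceeded YM4, and the log2 fold change was 1.10 (SE 0.21, adjusted p = 0.000179). Within O1 itself the epithelium was still the higher layer.

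Dll1, a Delta-like ligand, ranged from 7.24 to 12.1 normalized counts in epithelium with a median of 9.39. In stroma it had 6.18 in O1, 1.89 in O2, 4.78 in O3, 3.66 in Y1 and 4.61 in Y3, so the groups did not overlap, though O1 stroma came close to the lowest epithelium sample. The log2 fold change was 1.18 (SE 0.26, adjusted p = 0.000662).

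Dll4, the Delta-like ligand of sprouting vessels, was the only one of the 10 genes not called. Epithelium had 0 to 0.707 normalized counts with a median of 0.580, at most 24 counts a sample, and OF5 and YF5 had a count of 0, which allows up to 1.03 and 1.25 normalized counts there. Stroma fell into very unequal samples, with 3.45 in O2 and 2.52 in Y3 against 0.464 in Y1, 0.0583 in O1 (1 count) and 0 in O3, where a count of 0 allows up to 0.115. The log2 fold change was -1.44 (SE 0.86, 95% interval -3.23 to 0.35, adjusted p = 0.160). Without the O3 stroma sample it was -1.75 and passed (adjusted p = 0.0418), and without the O2 stroma sample it was -0.68 (adjusted p = 0.549).

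By level per kb, the ligand order in epithelium was Jag1 at 7.33 ± 1.19, Jag2 at 3.77 ± 0.65, Dll1 at 2.26 ± 0.48 and Dll4 at 0.115 ± 0.079 (SD, n = 9), and each of the first 3 was above the next in all 9 samples. In stroma the order was Jag2 at 1.77 ± 0.76, Jag1 at 1.21 ± 0.22, Dll1 at 1.002 ± 0.38 and Dll4 at 0.337 ± 0.411 (SD, n = 5). Jag2 was above Jag1 in 4 of the 5 stroma samples. Jag1 made up 54.4% ± 3.3 of the summed ligand level in epithelium and 28.8% ± 7.3 in stroma.

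Across all 10 genes per kb, Notch2 led in both layers. The epithelium order ran on through Hes1 (8.86 ± 1.55), Notch3, Jag1, Notch1, Jag2 and Dll1, with Dll4, Notch4 and Hey1 (0.0425 ± 0.0399) far below. Neighbours at the top were close, since Notch2 exceeded Hes1 in 7 of 9 samples and Notch3 exceeded Jag1 in 6 of 9. Stroma levels below Notch2 were compressed, and Notch1 and Dll1, like Dll1 and Hes1, did not differ beyond their spread.

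The targets Hes1 and Hey1, both repressors of transcription induced by Notch, differed in opposite directions. Hes1 had a lowest value of 12.5, a median of 17.9 and a highest of 22.0 normalized counts in epithelium. In stroma it had 0.117 in O1 (2 counts), 1.77 in O2, 2.87 in O3, 2.89 in Y1 and 2.52 in Y3. The layers did not overlap, and O1 stroma was far below the other stroma samples. Hes1 was higher in epithelium with a log2 fold change of 3.14 (SE 0.39, adjusted p = 1.03e-06), which was 2.85 without O1 stroma.

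Hey1, a Hey factor expressed in arterial endothelium, had 0 to 0.345 normalized counts in epithelium with a median of 0.124 and at most 9 counts a sample. Its count was 0 in OM8, YF5 and YM4. In stroma it had 6.48 in O1 (111 counts), 1.93 in O2, 1.15 in O3, 0.722 in Y1 and 1.18 in Y3. The measured value of every stroma sample was above that of every epithelium sample, with O1 far above the other stroma samples. The 3 counts of 0 allow up to 0.707, 1.25 and 1.04 normalized counts in OM8, YF5 and YM4, which in YF5 exceeds the stroma values of Y1, O3 and Y3, so a separation from these samples was not detectable at this depth. The log2 fold change was -3.77 (SE 0.65, adjusted p = 5.04e-05), and it was -2.91 without O1 stroma. The O1 stroma sample was thus at once the highest of the 5 for Hey1 and the lowest for Hes1.

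In total 6 of the 10 genes were higher in every epithelium than in every stroma sample and 1, Hey1, was lower by its measured values, where 14.4% and 16.9% of all genes tested showed such a separation. Within the 5 mice with both layers, Notch1, Notch2, Notch3, Jag1, Jag2, Dll1 and Hes1 were higher in the epithelium of all 5 mice. Hey1 was lower in the epithelium of all 5, Notch4 in 4 (all but O3), and Dll4 in 3. These 5 mice have no sample of low depth, and fitted alone they gave the same calls, 7 higher and 2 lower. With the mouse as a block the log2 fold change of Dll4 was -0.03 (SE 3.59), and the other 9 stayed called in the same direction.

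The markers of other cells differed among the stroma samples along with these values. The 10 blood endothelial markers summed to 22.9 to 36.6 normalized counts in epithelium and to 58.0 in O1, 92.1 in O2, 158 in O3, 91.0 in Y1 and 111 in Y3 in stroma. None of the 10 was at 0 in any stroma sample. O3 stroma therefore had the highest endothelial sum of the 5 together with the lowest Notch4 and no Dll4 count. O1 stroma had the lowest endothelial sum together with the highest Notch4 and Hey1. Single markers did not all follow these sums. O1 stroma was lowest for Pecam1, Cdh5, Kdr, Cldn5, Egfl7 and Vwf. It was highest for Tie1 (7.70), below only O3 for Erg (6.59) and below only O2 for Emcn (2.86). O3 stroma was highest for Pecam1, Kdr, Tek, Erg and Vwf, but not for Cdh5, Tie1, Emcn, Cldn5 and Egfl7. The 4 satellite cell markers summed to 13.7 in O1 and 9.08 in O2 against 5.20 to 5.79 in O3, Y1 and Y3, and to 0.692 to 2.55 in epithelium. Vcam1 was the largest part of the sum in O1 (7.41) and O2 (5.46). Calcr was also highest in these samples. Pax7 was highest in O1 (4.32) but lowest in O2 (0.781), with 2.64 in O3. Of these 4 markers, 1 was at 0 in O1 (Myf5) and in O3 (Calcr). The part of these cells in the Notch values was not tested.

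**Figure D3:**
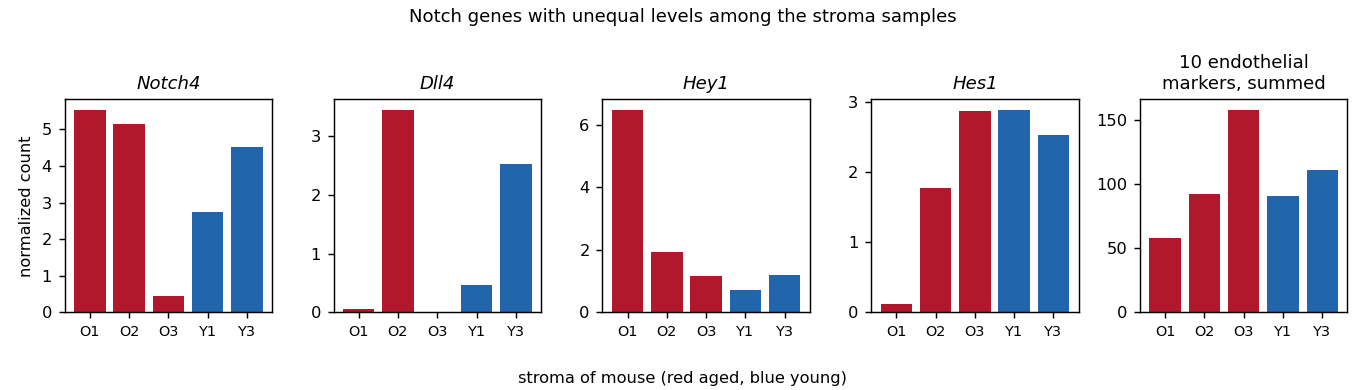
Normalized counts of Notch4, Dll4, Hey1 and Hes1 and the sum of 10 endothelial markers in the stroma of each mouse, red for aged and blue for young. O3 combines the tallest endothelial bar (158) with the lowest Notch4 (0.459) and no Dll4, and O1 combines the tallest Hey1 bar (6.48) with almost no Hes1 (0.117).

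The rest of the pathway was then read gene by gene. Of 51 other Notch pathway genes in 8 fixed lists, 42 could be tested, and 13 were higher and 11 lower in epithelium, with a median log2 fold change of 0.06. These 24 of 42 are a share near the 56.2% of all genes tested, so the calls below describe single genes. Dll3, Dlk1, Dner, Hes3, Hes5, Hes7, Hey2, Heyl and Mfng were too low to test between the layers.

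Of the 3 other Hes factors and direct targets that were tested, 2 were higher in epithelium. Nrarp, a target whose product dampens Notch signaling, averaged 5.12 ± 1.05 (SD, n = 9) normalized counts in epithelial samples against 0.200 ± 0.211 (SD, n = 5) in stromal ones, and its log2 fold change was 4.62 (SE 0.58, adjusted p = 9.72e-07). Hes2 was also higher (3.56, SE 0.85, adjusted p = 0.00132), at low levels of 1.36 ± 0.52 and 0.107 ± 0.146. Hes6 was not called (-1.20, adjusted p = 0.0636). Hey2 and Heyl were not tested and had mean stroma values of 1.03 and 1.60 normalized counts against 0.0519 and 0.299 in epithelium. Dlk2, a ligand-like protein that lacks the domain by which Delta ligands bind Notch, had 4.73 ± 1.70 in epithelium and 0.0310 ± 0.0507 in stroma, with a log2 fold change of 7.13 (SE 0.63, adjusted p = 7.48e-09).

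The ubiquitin ligases that act on ligands in the cell that sends the signal were split. Neurl1a had the lowest log2 fold change of the 42, at 0.986 ± 0.374 normalized counts against 36.3 ± 6.2 in stroma (log2 fold change -5.18, SE 0.23, adjusted p = 9.65e-13). Its relative Neurl1b was higher in epithelium (2.05, SE 0.55, adjusted p = 0.00366). Mib2 was lower (-0.62) and Mib1 was not called.

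Among the receptor cleavage genes, Psen2, a catalytic subunit of gamma-secretase, was lower in epithelium at 1.67 ± 0.55 normalized counts against 6.37 ± 2.53 in stroma (log2 fold change -1.88, SE 0.31, adjusted p = 3.49e-05). The proteases Adam17 (1.03) and Adam10 (0.52) and the gamma-secretase subunit Aph1b (0.89) were higher. Of the glycosylation genes, Pofut1, which adds the O-fucose that the Fringe enzymes extend, was lower (-0.73), and the other 3 tested were not called.

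In the nucleus, Rbpj was not called, at 8.86 ± 1.63 normalized counts in epithelium and 11.9 ± 3.4 in stroma (log2 fold change -0.44, SE 0.20, adjusted p = 0.0641). The coactivator Maml3 was higher in epithelium (1.82, SE 0.29, adjusted p = 1.79e-05) and Maml2 lower (-0.56). Of the corepressors, Hdac1 (1.48) and Kdm5a (0.78) were higher and Ncor1 (-0.36) was lower. Numb, an inhibitor that sends Notch to degradation, was higher at 30.2 ± 2.8 against 9.99 ± 1.76 normalized counts (1.60, SE 0.15, adjusted p = 2.43e-08), as was the ubiquitin ligase Itch (1.11). Fbxw7 (-0.55), Dtx3 (-1.67), Dtx3l (-0.71) and Dtx4 (-1.68) were lower.

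**Figure D4:**
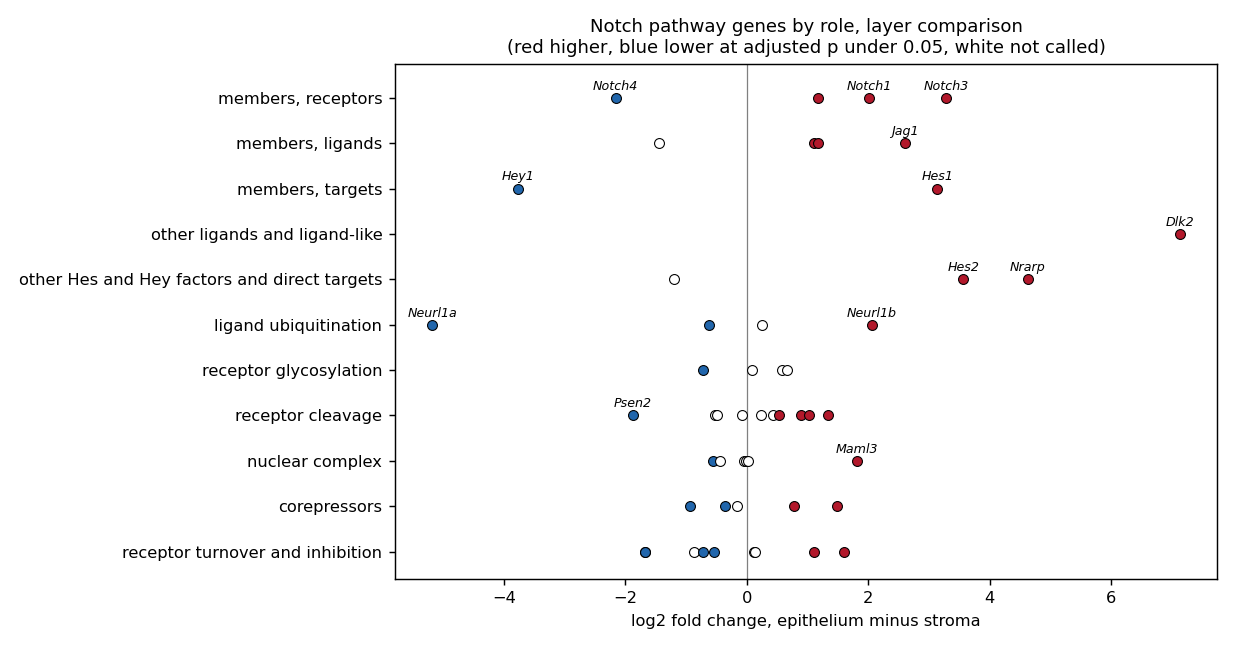
Log2 fold change, epithelium minus stroma, of each tested Notch pathway gene, one row per role, with red for higher and blue for lower at an adjusted p under 0.05 and white for not called. Dlk2 at 7.13 and Neurl1a at -5.18 mark the ends, and the nuclear complex spans -0.56 (Maml2) to 1.82 (Maml3).

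As a description, the genes whose log2 values followed each receptor most closely over the 14 samples were listed. Only the 6847 genes whose mean log2 CPM reached 3 were searched. For Notch3 they were Abca12, Esrp2 and Ppl (Pearson r of 0.995 for each). For Notch1 they were Itgb4 (0.983), Ankhd1 (0.979) and Ahnak (0.979), and for Notch2 Ugt1a7c (0.983), Srebf2 (0.982) and Sema4b (0.979). Notch4 had looser matches in Tbc1d8 (0.928), Sik3 (0.920) and Tpcn1 (0.917) among the genes searched. Notch4 itself, at most 5.54 normalized counts, was below the level searched. So were low endothelial markers such as Tie1 (at most 7.70) and Emcn (at most 4.07). Whether genes of such low level follow Notch4 more closely was not tested. The points share the split between the layers and differ in depth, and r within a layer was not computed.

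The second question was whether the genes differed between old and young mice. In epithelium, with 5 aged and 4 young samples and a term for whether the mouse code holds a second letter, 9 of the 10 genes were tested and 0 were called by edgeR. Over all 15859 genes tested 0.0126% were called, which is 2 genes, and 3.21% had an unadjusted p under 0.05. DESeq2 called 28 genes and 0 of the 10. Hey1 was too low to test. Aged and young values overlapped for all 10 genes, and 1.27% of all genes tested showed no overlap.

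Jag1 had the only unadjusted p under 0.05 of the 9. Aged epithelium had 50.7 in O1, 49.1 in O2, 40.5 in O3, 41.3 in OF5 and 52.1 in OM8, and young epithelium 40.6 in Y1, 38.2 in Y3, 41.7 in YF5 and 30.1 in YM4 normalized counts. The highest 3 values were aged and the lowest 2 young, while the middle 4 were mixed. The log2 fold change, aged minus young, was 0.29 (SE 0.13, 95% interval 0.02 to 0.56). Its adjusted p was 0.9996 in the edgeR quasi-likelihood fit, where the unadjusted value was 0.0375.

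The receptors that were higher in epithelium had narrow intervals. The log2 fold change with age was 0.25 for Notch1 (95% interval -0.13 to 0.64), 0.13 for Notch2 (-0.14 to 0.40) and 0.19 for Notch3 (-0.08 to 0.46). Dll1 was at 0.00 (-0.44 to 0.44), Jag2 at 0.13 (-0.17 to 0.44) and Hes1 at -0.01 (-0.36 to 0.34). For these 6 genes the intervals reached at most 0.64 on the log2 scale in either direction. Notch4 (-0.67, interval -1.69 to 0.35) and Dll4 (0.91, interval -0.46 to 2.27) were low and much less certain.

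In stroma, with 3 aged and 2 young samples, all 10 genes were tested and 0 were called by edgeR, as were 0 of all 21323 genes (0%), of which 776, or 3.64%, had an unadjusted p under 0.05. DESeq2 called 2 genes and 0 of the 10. None of the 10 had an unadjusted p under 0.05. Notch1 was the only one without overlap, since its aged values of 16.0, 14.2 and 11.6 normalized counts were all below the young values of 18.6 and 16.2, which is a gap of little width between O1 and Y3 and a separation in this direction that 14% of all genes tested showed. Its log2 fold change was -0.33 (SE 0.31, 95% interval -1.03 to 0.38).

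The widest stroma difference with age was that of Hey1, at 1.71 (SE 1.08, 95% interval -0.70 to 4.12), which was 0.69 without O1. Hes1 was at -0.76 (SE 1.19, interval -3.42 to 1.90) and -0.22 without O1. Dll4 was at -0.34 with an interval of -4.79 to 4.11. The other 6 genes, apart from Notch1, lay between -0.16 and 0.50. Markers of other cells were set beside these values, and edgeR called none of them with age in stroma. The 5 basal keratinocyte markers summed to 20.5, 40.3 and 62.1 normalized counts in aged stroma (O1, O2 and O3) and to 13.98 and 14.6 in young stroma, with 3 of 5 at an unadjusted p under 0.05, and none was at 0. The 10 pericyte and smooth muscle markers summed to 1067, 2242 and 943 in aged and to 431 and 737 in young stroma, with 4 of 10 at an unadjusted p under 0.05. The 5 Schwann cell markers ran the other way, at 25.6, 38.9 and 75.4 against 109 and 84.3, with 1 of 5. Sums of the differentiated keratinocyte, endothelial and fibroblast markers overlapped between the ages, with 2 of 5, 0 of 10 and 1 of 6 at an unadjusted p under 0.05. All 5 differentiated keratinocyte markers had a positive log2 fold change with age, from 2.04 to 3.15. The part of these cells in the stroma values was not tested.

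**Figure D5:**
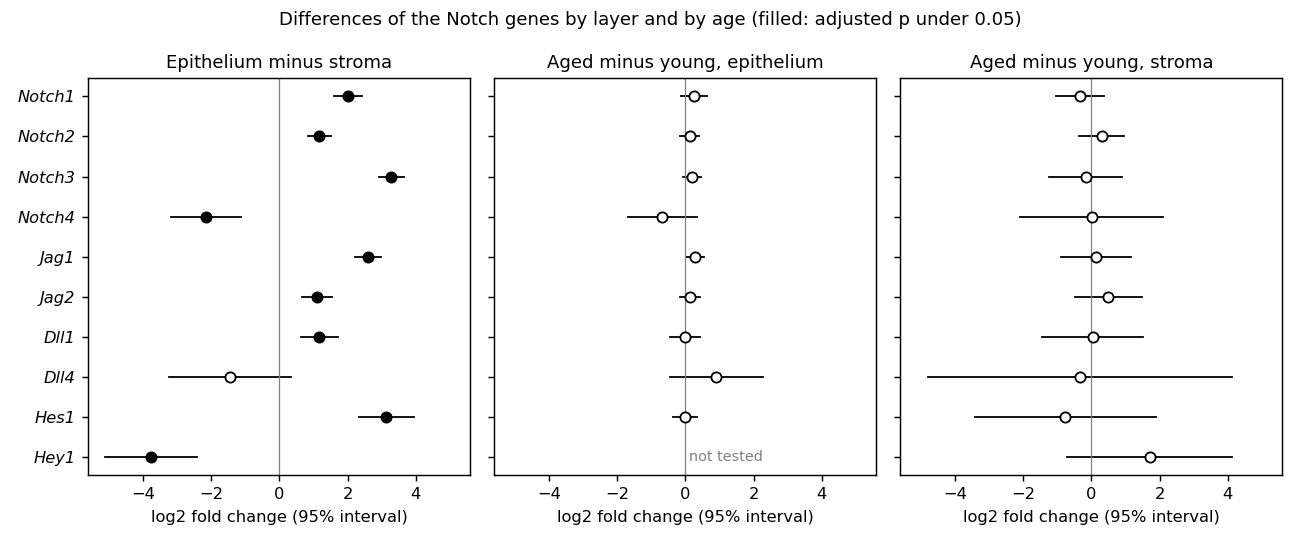
Log2 fold change with 95% interval for each gene, epithelium minus stroma on the left, aged minus young in epithelium in the middle and aged minus young in stroma on the right. Filled points passed an adjusted p under 0.05, which 9 genes did in the left panel and none in the other panels. The stroma intervals of Dll4, Hes1 and Hey1 all span at least -0.70 to 1.90.

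Whether age acted differently in the layers was tested as an interaction over the 10 samples of the 5 mice with both. The fit had no term for the mouse, so its SEs, intervals and p-values leave out the pairing of the layers. By edgeR, 0 of the 10 genes and 0 of 22771 genes (0%) were called, 4.3% of all genes had an unadjusted p under 0.05, and none of the 10 did. DESeq2 called 62 genes and 0 of the 10, and edgeR with the mouse as replicate block called 0 genes. The estimates farthest from 0 were those of Hey1, at -2.45 (SE 1.31, 95% interval -5.32 to 0.42), and Dll4, at 1.42 (SE 2.34) and at 6.64 without O2 stroma, and Notch1 was at 0.59 (SE 0.43). None of the other 51 pathway genes was called by edgeR with age in either layer, with 42 tested in epithelium and 44 in stroma, 0 of them at an unadjusted p under 0.05. In the interaction, 47 of the 51 were tested and 0 called, with only Hes2 at an unadjusted p under 0.05 (log2 estimate 6.01, SE 1.69), at stroma levels of 0 to 0.276 normalized counts.

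Several of the 10 genes share exon sequence with other annotated genes, and whether the counting used strand is not given in the sources used here. The antisense gene Gm17276 shares 488 bases with Notch3 exons and had at most 43 counts, in O2 stroma, where Notch3 had 191. Next to Dll4, Gm14207 had at most 13 counts, in Y3 stroma, where Dll4 had 64. For Notch1, 0610009E02Rik had at most 11 counts, and for Notch2, Gm42820 had at most 28. The lincRNA A930024N18Rik shares 867 exon bases with Dll1 on the opposite strand. It had no counts under that symbol, so its part in the Dll1 counts could not be checked.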

How the data were processed

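Peeled esophageal epithelium and stroma of C57BL/6 mice were sequenced as poly(A)-selected libraries. The deposited values are raw counts per gene: the authors used Rsubread for alignment against GRCm38.p6 and its featureCounts function for gene totals. The annotation release, strand setting and treatment of multi-mapping reads are not given in the sources used here. Groups came from the labels. Counts were tested in edgeR 4.0.16 (R 4.3.3) by quasi-likelihood with TMM normalization, genes passing filterByExpr (minimum count 10), Benjamini-Hochberg adjustment over all genes tested and a threshold of 0.05. The layer comparison had no covariate, the age comparison in epithelium had the form of the mouse code (plain or with a second letter), and the interaction used the 5 mice with both layers. The SE of an edgeR estimate was taken as its absolute log2 fold change divided by the square root of the quasi-likelihood F statistic. Intervals were built on this SE, which is unstable for estimates near 0. DESeq2 1.42.0 was an alternative. Scripts were tested on simulated data. Lengths are exon unions of GENCODE M21, and promoter windows are from RefSeq.

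The 10 genes, pathway lists and marker lists were chosen with earlier results of these data known. Named are the 10 genes, pathway genes called in a comparison or untested, and the 3 genes most correlated with each receptor among those searched. Some of the pathway genes that were called are counted but not reported here by name. Hes6, Mib1, Rbpj and the overlapping genes were named after their values were seen. Each sample is one mouse and layer. The mouse code pairs the layers of one animal, although their deviations from the group means correlated only weakly. In the 3 aged mice r was 0.037 to 0.062. The 2 young mice mirror each other around their mean, so they share a single r of 0.155. Of 20 same-group sample pairs, none was as alike as sampling noise allows (lowest chi-square per degree of freedom 9.94). Intervals and floors of 3 counts cover counting error or the spread between samples only.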

Additional observations from a re-analysis of the deposited data

Results flagged for a closer look

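One value stood apart from its group. Dll4 in the epithelium of aged mouse OF5 had a log2(normalized count + 0.5) of -1, which is a count of 0, while the other 4 aged epithelium samples lay between 0.11 and 0.27. The gap was 0.874 of the range of the group, above the critical value of Dixon's test for 5 samples. OF5 is one of the 4 samples of low depth, and its floor of 3 counts is 1.03 normalized counts. Of 20 gene and group pairs examined, this was the only value set apart, and chance sets apart about 1 in 20.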

How the results depend on the processing

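The layer calls of 7 genes higher and 2 lower held under DESeq2, no filter, upper quartile scaling, removal of genes over 1% of counts, covariates, the mouse as replicate block (8590 genes called) and every left-out sample, except that Dll4 passed as another lower gene without O3 stroma. Dll4 was tested in only 11 of the fits with a left-out sample, where it ranged from -1.75 to -0.68. Requiring 10 counts in every sample left 6 genes to test, all higher, 0 lower, and 4316 genes called in all. The largest shift of the median of all genes by scaling was -0.11 on the log2 scale, without genes over 1% of counts. Other settings moved the median of the genes tested in both fits further. The shift was -0.31 with 10 counts in every sample, 0.20 with no filter and 0.19 with the mouse as replicate block.

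With age, 0 of the 10 genes were called under any alternative. The number of all genes called in epithelium was 28 with DESeq2, 36 with no filter, 0 without the covariate, 4 in plain codes alone, 1 in letter codes alone, and 0 to 3 over left-out samples (0 without Y1, 1 without O1 or O3). In stroma it was 2 with DESeq2, 26 with no filter, 6 with the code number as replicate block, and 0 to 13 over left-out samples, 13 without Y1 and 7 without Y3, fits in which the lone young sample is assumed to vary like the aged ones. For the interaction it was 62 with DESeq2, 98 with no filter and 0 to 32 over left-out samples, 32, 24 and 1 without the stroma of O1, O2 and O3. The causes were not tested.

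Values near 0 changed sign. In epithelium Dll1 was 0.0055 with DESeq2, 0.033 with 10 counts in every sample, 0.020 with upper quartile scaling, 0.047 in plain codes alone and -0.17 to 0.18 over left-out samples. Hes1 there was 0.019 with 10 counts in every sample, 0.0045 with upper quartile scaling, 0.13 in plain codes, 0.16 with the number as replicate block and -0.14 to 0.10 over left-out samples. In stroma Notch4 was -0.020 with 10 counts in every sample, -0.017 with upper quartile scaling, -1.13 with the number as replicate block and -0.37 to 0.52 over left-out samples, and Dll1 was -0.029 with upper quartile scaling. Over left-out stroma samples Notch2 ran from -0.020 to 0.41, Notch3 from -0.38 to 0.035, Jag1 from -0.092 to 0.24, Dll1 from -0.31 to 0.36 and Dll4, tested in 4 of these fits, from -1.11 to 1.32. The interaction of Dll4 ran from -0.34 to 6.64 over left-out samples.

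Aged and young mice shared the code numbers 1, 3 and 5. Deviations from the age means correlated between them in epithelium (r of 0.302, 0.318 and 0.214), but not once centred within the form of the code (-0.107, 0.027 and -0.035), so the number was taken as a name only. With the number as replicate block, 2 genes were called in epithelium and 0 of the 10. The low depth of 4 epithelium samples limits Notch4, Dll4 and Hey1 there, where 3 counts are 0.707 to 1.25 normalized counts.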
